A study of Mus musculus with 10 samples.

Results

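The genes described here were 44 genes of innate sensing and regulated cell death, listed by symbol and grouped by function, among the 21792 genes with values in every library. They comprised 14 Toll-like receptor (TLR) and adaptor genes, 9 inflammasome and pyroptosis genes, 3 necroptosis genes, 14 apoptosis genes and 4 ferroptosis genes. RNA-seq of the kidney cortex was available from 4 sham mice and 6 mice with aristolochic acid nephropathy (AAN), all wild type. AAN is a model of kidney fibrosis in which a plant toxin injures the proximal tubule. Aristolochic acid was injected once into the peritoneum at 5 mg/kg in the AAN mice, the sham mice were given PBS alone, and the kidneys were taken on day 28. The study's methods describe male C57BL/6 mice aged 8 weeks for this model. Each library came from 1 mouse, named here by its tag, and no batch was given. The question addressed was which of these genes differed between the cortex of AAN and sham kidneys.

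TLRs are membrane receptors that recognise microbial molecules and some products of damaged cells, and most of them signal through the adaptor MYD88. Inflammasomes are cytosolic complexes that activate caspase-1, which matures interleukin-1β and interleukin-18 and cleaves gasdermin D to open pores in the membrane (pyroptosis). Apoptosis is run by BCL2 family proteins and caspases, necroptosis by RIPK3 and MLKL, and ferroptosis by the peroxidation of membrane lipids. Tubular epithelium, resident macrophages and infiltrating leukocytes can all carry parts of this machinery in the kidney.

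The values were FPKM, fragments scaled by transcript length and by the number of mapped fragments, so that levels could be compared between genes per unit length. The steps of the low values gave depths of 15.84 to 17.5 M fragments in sham and 13.39 to 16.46 M in AAN, where M stands for 1e+06. Levels of different genes are not independent within a library, because the 20 most abundant genes took 50.6 to 74.6% of the summed FPKM in sham and 28.5 to 61.9% in AAN. The median log2 fold change of all genes was 0.75 as deposited and 0.066 after scaling by the median of ratios. Changes are therefore given on the deposited scale and, where this matters, on the rescaled one. The labelled tissue was checked with 8 proximal tubule markers, whose summed level was 1751 to 3935 FPKM in sham and 540 to 2061 FPKM in AAN. Among the AAN mice, B614 stood apart, with 2061 FPKM of proximal tubule markers and 252 FPKM of 8 leukocyte markers, against 493 to 832 FPKM of the latter in the other 5 AAN mice and 16.6 to 29.8 FPKM in sham. Macrophage markers summed to 38.3 to 61.3 FPKM in sham and 624 to 2167 FPKM in AAN, and neutrophil markers to 0.228 to 2.35 FPKM and 2.64 to 15.7 FPKM, with Ly6g at 0 in all sham mice. In bulk tissue, more cells of a type and more RNA per cell cannot be told apart.

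Most of the sensing, pyroptosis and necroptosis genes were higher in AAN, the apoptosis genes were divided, and 1 ferroptosis gene was higher. Genes were called higher or lower with limma on log2(FPKM + 0.1), a scale that understates the change of low genes, if they changed by 2-fold or more in either direction with an adjusted p no larger than 0.05. All 44 genes passed the filter of a mean of 0.1 FPKM over the 10 mice, although Tlr5, Tlr8, Tlr11, Nlrp1a, Nlrp3 and Aim2 had a sham mean under it and passed through their level in AAN. A gene that passes in this way has to be higher in AAN, so the calls of these 6, which are among the 31 below, are a description. They are also among the 30 genes without overlap, the 33 above the median of all genes and the 25 by median of ratios. Both medians of the 44 include them, and these figures are a description to that extent. Of the 44 genes, 31 were higher in AAN, beside 35.8% of the 17129 genes tested. None of the 44 was called lower by limma, beside 3.43% of all genes, and 1 gene, Bid, was lower at an unadjusted p under 0.05. Bid also passed the adjusted limit (limma adjusted p = 0.0335) but not the 2-fold limit (log2 fold change −0.94). The levels of 30 of the 44 genes lay higher in every AAN mouse than in any sham mouse, which was so for 40.3% of all genes. None lay lower in every AAN mouse, beside 3.25% of all genes. The median log2 fold change of the 44 genes was 1.94, and 33 of them lay above the median of all genes. After scaling by the median of ratios, 25 were higher and 3 lower, beside 19.1% and 10.5% of all genes, and the median of the 44 was 1.36. Without B614, 32 were higher on the deposited scale.

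**Figure D1:**
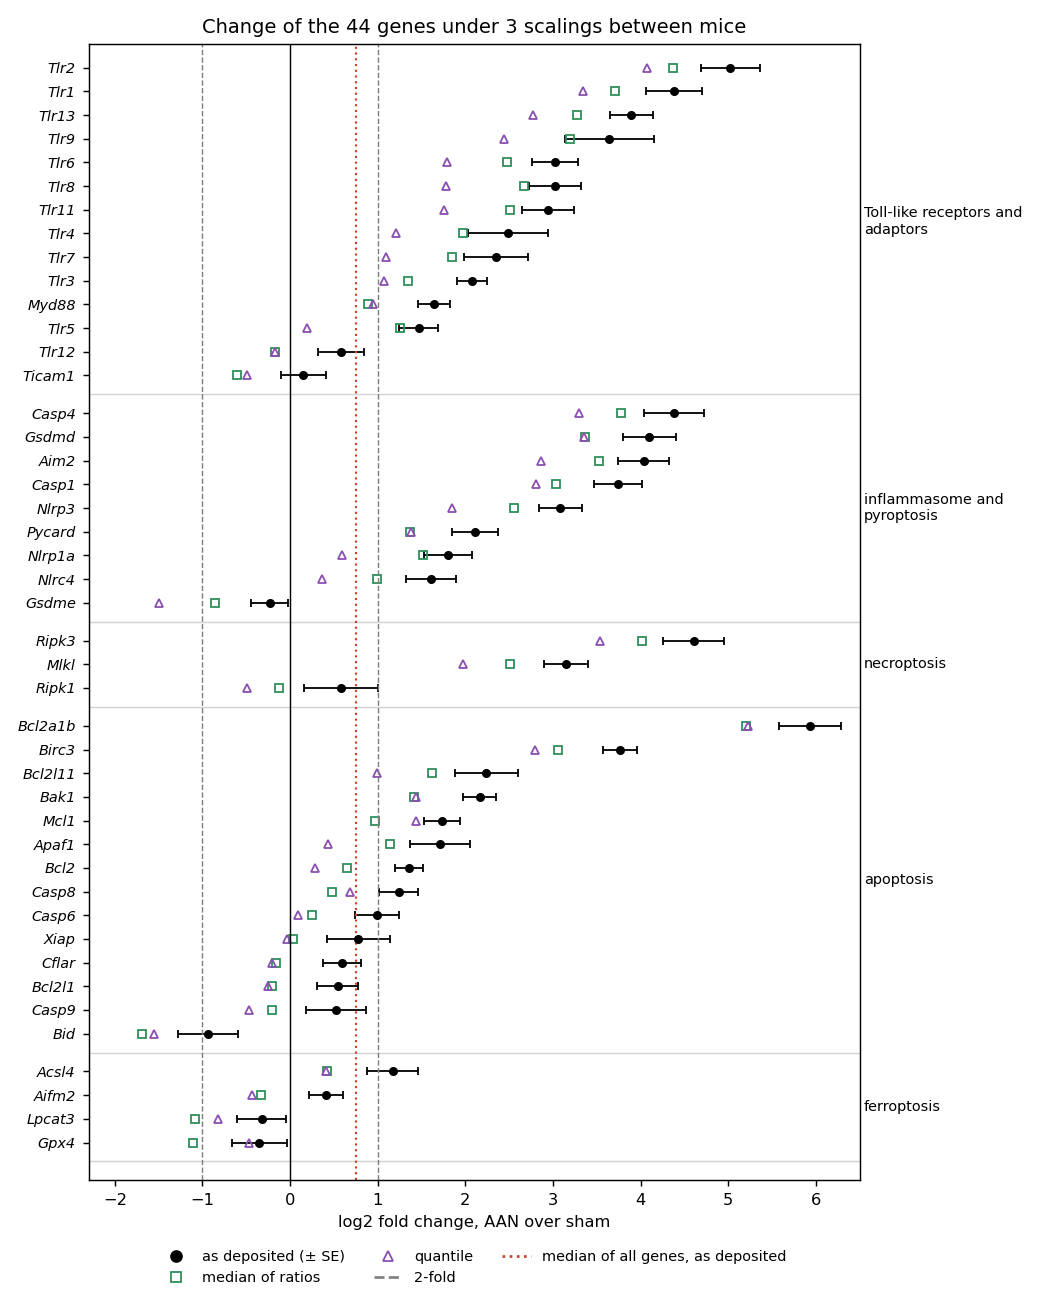
Log2 fold change of AAN over sham for each of the 44 genes by class, as deposited (black points, ± SE from limma) and after median of ratios or quantile scaling (open symbols), with the median of all genes at 0.75 as a dotted line. The TLR, inflammasome and necroptosis genes lie mostly to the right of that line under all 3 scalings, while Bid, Gpx4, Lpcat3 and Gsdme lie left of 0 under all 3.

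The classes differed in how many of their genes were called, a contrast that was not tested. Among the TLR and adaptor genes, 12 of 14 were higher (median log2 fold change 2.72). For inflammasome and pyroptosis genes the count was 8 of 9 (median 3.09), and for necroptosis 2 of 3 (median 3.15). Apoptosis genes were higher in 8 of 14 cases (median 1.3), and ferroptosis genes in 1 of 4 (median 0.041). Of all genes tested, 35.8% were higher. The class counts include Tlr5, Tlr8, Tlr11, Nlrp1a, Nlrp3 and Aim2, which passed the filter through their AAN level and whose calls are a description. After median of ratios scaling these counts became 11, 7, 2, 5 and 0, with 1 apoptosis gene and 2 ferroptosis genes lower. On that scale 19.1% of all genes were higher and 10.5% lower. All 8 leukocyte markers were also higher, with log2 fold changes of 3.37 or more, and 11 of the 44 genes reached that size. The part of leukocyte number in the changes of these genes was not tested.

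The 250 bases before the transcription start were read for 41 of the 44 genes from RefSeq (GRCm38.p6) and searched on both strands for the κB motif bound by NF-κB, for GAAANNGAA, recognised by interferon regulatory factors (IRF), and for GAGGAAG, recognised by the myeloid and B cell factor PU.1. A κB match was found in 5 of the 41 genes (12.2%) and in 4.46% of all genes with such a sequence. The IRF motif matched in 6 genes (14.6%), against 8.18% of all. GAGGAAG was found in 16 genes (39.0%), against 12% of all. A match is a description of the letters and not a site of binding. GAGGAAG was also found in Casp6, Lpcat3, Ripk1, Ticam1 and Xiap, which were not called on the deposited scale. Among the uncalled genes, Bcl2l1 held a κB match, and Gpx4 and Xiap an IRF match. Ripk3, Birc3 and Casp1, which were called higher, held no match of any of these motifs. Whether the motifs go with the changes was not tested. The sequences below are examples with a match, from genes with large changes or from the sensors themselves, all called higher. They are given 5′ to 3′ on the strand of the gene up to the annotated gene start, with the matches in capitals, κB for Tlr2, Casp4 and Nlrp3, GAGGAAG for Tlr9 and Bcl2a1b, and GAGGAAG followed by the IRF motif for Tlr11. The 11 capitals of Tlr2 and of Casp4 each hold 2 overlapping κB matches, and Bcl2a1b holds 2 overlapping copies of GAGGAAG. In these sequences no match of one motif overlaps a match of another. Their positions are chr3:83841768-83841858 (minus strand) for Tlr2, chr9:106222348-106222597 (plus) for Tlr9, chr14:50357664-50357913 (plus) for Tlr11, chr11:59541319-59541567 (plus) for Nlrp3, chr9:5308599-5308827 (plus) for Casp4 and chr9:89199023-89199208 (plus) for Bcl2a1b.
Tlr2: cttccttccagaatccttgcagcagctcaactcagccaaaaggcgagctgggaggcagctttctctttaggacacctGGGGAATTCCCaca
Tlr9: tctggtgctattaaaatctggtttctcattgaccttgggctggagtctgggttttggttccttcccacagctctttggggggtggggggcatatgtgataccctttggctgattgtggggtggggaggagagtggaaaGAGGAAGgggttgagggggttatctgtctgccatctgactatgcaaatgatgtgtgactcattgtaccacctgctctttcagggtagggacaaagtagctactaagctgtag
Tlr11: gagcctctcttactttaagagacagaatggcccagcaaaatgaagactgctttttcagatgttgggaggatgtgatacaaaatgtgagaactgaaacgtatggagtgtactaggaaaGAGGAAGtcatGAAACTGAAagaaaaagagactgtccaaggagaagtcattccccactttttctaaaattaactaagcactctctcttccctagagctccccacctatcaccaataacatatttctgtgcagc
Nlrp3: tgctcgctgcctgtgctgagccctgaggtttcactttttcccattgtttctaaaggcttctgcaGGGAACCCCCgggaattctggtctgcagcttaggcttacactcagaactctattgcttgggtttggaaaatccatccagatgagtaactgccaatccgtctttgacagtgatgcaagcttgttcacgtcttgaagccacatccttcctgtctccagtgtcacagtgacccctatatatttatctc
Casp4: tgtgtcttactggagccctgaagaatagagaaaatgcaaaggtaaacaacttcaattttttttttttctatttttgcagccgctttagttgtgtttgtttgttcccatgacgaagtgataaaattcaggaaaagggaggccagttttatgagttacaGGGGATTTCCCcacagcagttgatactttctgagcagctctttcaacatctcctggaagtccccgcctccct
Bcl2a1b: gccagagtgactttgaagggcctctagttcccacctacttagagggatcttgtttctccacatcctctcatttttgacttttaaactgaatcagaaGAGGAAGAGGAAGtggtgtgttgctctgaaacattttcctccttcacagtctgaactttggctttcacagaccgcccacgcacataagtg

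Tlr2 showed the largest change among the receptors. TLR2 pairs with TLR1 or TLR6 to recognise bacterial lipoproteins. Tlr2 (ENSMUSG00000027995, chr3:83836272-83841767, minus strand) was at 0.701, 0.147, 0.282 and 0.543 FPKM in sham mice B607, B634, B636 and H249. In the AAN mice it ranged from 9.35 to 25.1 FPKM (median 14.7). The groups were far apart, and B614, at 14.1 FPKM, lay within the range of the rest of its group. Tlr2 thus had a log2 fold change of 5.02 ± 0.34 (SE, limma adjusted p = 3.52e-07). Its partner Tlr1 was at 0.250, 0.359, 0.385 and 0.335 FPKM in sham and at 3.36 to 11.7 FPKM (median 10.4) in AAN, with B614 lowest. The Tlr1 change was 4.38 ± 0.32 (adjusted p = 5.85e-07). Tlr6, the other partner, averaged 0.110 ± 0.0188 FPKM in the 4 sham mice and 1.68 ± 0.545 FPKM in the 6 AAN mice (mean ± SD), a change of 3.03 ± 0.26.

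**Figure D2:**
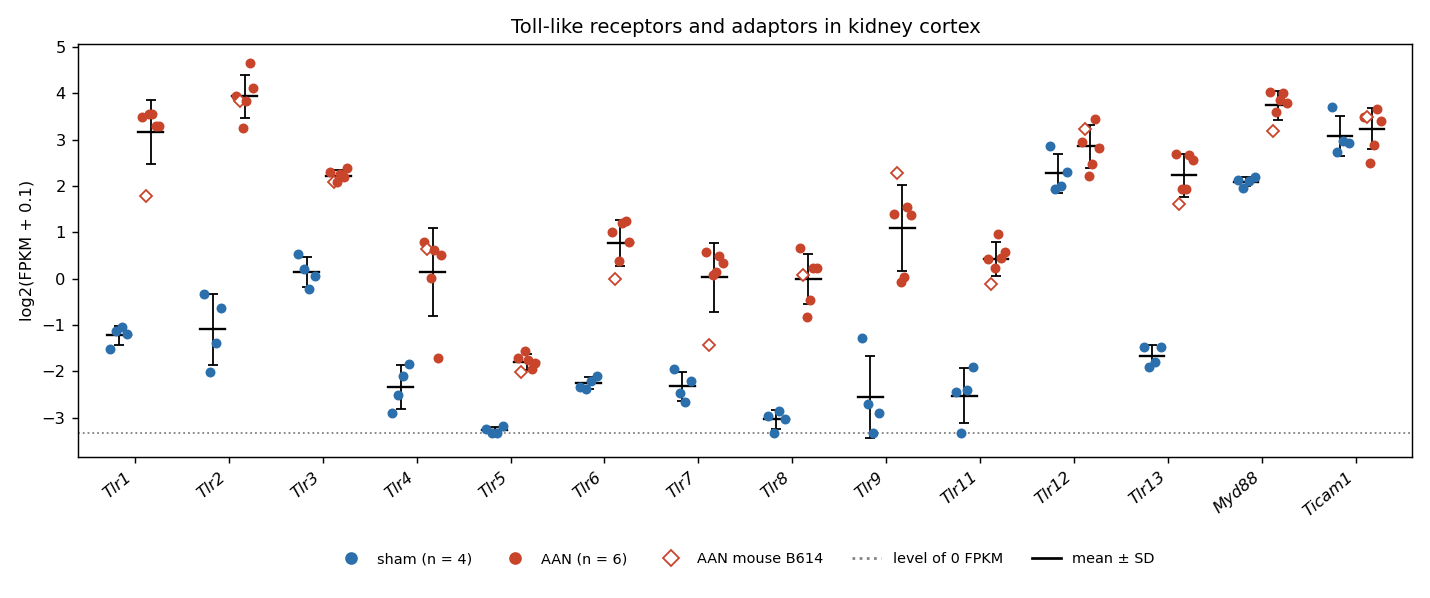
Levels of the 14 TLR and adaptor genes as log2(FPKM + 0.1) in 4 sham mice (blue) and 6 AAN mice (red, B614 as an open diamond), with mean ± SD. Sham and AAN mice are separate for 12 genes and overlap for Tlr12 and Ticam1.

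Tlr4, the receptor of bacterial lipopolysaccharide, was at 0.0338, 0.0747, 0.135 and 0.179 FPKM in sham and at 0.206 to 1.63 FPKM (median 1.39) in AAN. The lowest AAN mouse, B642, was close to the highest sham mouse, and the other 5 were well above. The change was 2.49 ± 0.46 (adjusted p = 0.00063), and 2.86 without B642. It was not called after quantile normalization (1.21, limma adjusted p = 0.0543) or with a pseudocount of 1 (0.93). Tlr5, the flagellin receptor, was listed at 0 in 2 sham mice and at 0.00535 and 0.0114 FPKM in the others, which is at most about 1 fragment a mouse. It lay between 0.149 and 0.242 FPKM (median 0.190) in AAN, above the 0.0496 FPKM that 3 fragments, the limit a count of 0 allows, would give. The AAN and sham ranges of Tlr5 were apart, but the size of its change depended on the constant added before the logarithm, 1.47 ± 0.22 with 0.1 and 0.24 with 1. Its sham mean was under the filter, so its call is a description.

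The receptors of nucleic acids lie in endosomes. Tlr3, which binds double-stranded RNA, was the most abundant of them in sham at 1.03 ± 0.249 FPKM and reached 4.56 ± 0.379 FPKM in AAN (log2 fold change 2.07 ± 0.17, adjusted p = 1.29e-06). It was also the most even of them among the AAN mice, which lay between 4.14 and 5.12 FPKM. Tlr9, which recognises unmethylated CpG DNA, was listed at 0 in B636 and was 0.312, 0.0544 and 0.0349 FPKM in the other sham mice. In AAN it ranged from 0.853 to 4.78 FPKM (median 2.53), and here B614 was the highest mouse. Its change was 3.64 ± 0.51 (adjusted p = 8.34e-05). Tlr13, the receptor of bacterial ribosomal RNA in mice, changed by 3.90 ± 0.25, from 0.219 ± 0.0488 to 4.81 ± 1.5 FPKM. Tlr7 and Tlr8, linked genes on the X chromosome for sensing single-stranded RNA, changed by 2.35 ± 0.37 and 3.02 ± 0.29. Sham mice held 0.0581 to 0.159 FPKM of Tlr7 and 0 to 0.0389 FPKM of Tlr8, and AAN mice 0.271 to 1.39 and 0.462 to 1.49 FPKM, without overlap for either. The sham mean of Tlr8 was under the filter, and it passed through its AAN level, so its call is a description. Neither Tlr7 nor Tlr8 was called with a pseudocount of 1 (0.84 and 0.91).

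Tlr11 and Tlr12 encode receptors of protozoan profilin, and Tlr11 was called higher while Tlr12 was not, a difference that was not tested. Tlr11 was listed at 0 in sham mouse B634, was 0.0829 to 0.166 FPKM in the other sham mice and reached 0.822 to 1.85 FPKM (median 1.26) in AAN (log2 fold change 2.95 ± 0.29). The sham mean of Tlr11 was under the filter of 0.1 FPKM. Tlr12 was at 7.14, 3.74, 3.90 and 4.82 FPKM in sham and at 4.52 to 10.7 FPKM (median 7.33) in AAN. The groups overlapped, and the change of 0.58 ± 0.26 did not pass the test (adjusted p = 0.0753) and was −0.17 after median of ratios scaling. Tlr12 was thus the most abundant TLR per length in sham, with 63.7 to 68.5% of the summed FPKM of the 12 TLR genes, and 11.4 to 21.4% of that sum in AAN. Tlr2 took 2.54 to 7.18% of the sum in sham and 23.9 to 38.4% in AAN, and Tlr1 2.40 to 6.47% and 7.80 to 29.8%. These shares do not depend on the scaling between mice. They did not overlap between the groups for any of these 3 genes.

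Of the adaptors, Myd88 was called higher and Ticam1 was not. Myd88 was at 4.30, 3.75, 4.18 and 4.48 FPKM in sham and at 8.96 to 16.2 FPKM (median 14.0) in AAN, with B614 lowest but above all sham mice. The change was 1.64 ± 0.18 (adjusted p = 1.12e-05), and 0.89 after median of ratios scaling, under the 2-fold limit. Myd88 shares 290 exonic bases with Acaa1a on the opposite strand, whose log2 fold change was −0.068, and whether strand was used in the counting was not stated. Ticam1, the adaptor that TLR3 uses, was at 12.9, 6.52, 7.67 and 7.52 FPKM in sham and at 5.56 to 12.5 FPKM (median 10.7) in AAN. Its groups overlapped throughout, with a change of 0.15 ± 0.26 (adjusted p = 0.622) on the deposited scale and −0.60 after median of ratios scaling. Of 33 other genes of the TLR pathway, 19 were higher and none lower (median log2 fold change 1.67), beside 35.8% and 3.43% of all genes. By median of ratios 15 were higher and 1 lower (median 0.95), beside 19.1% and 10.5%. The 19 include Ticam2, whose sham mean was under the filter. It passed through its AAN level, so its call is a description. The largest changes were those of Ly86 (5.11 ± 0.41), a partner of the TLR-like receptor CD180, of Cd14 (4.77 ± 0.35), a co-receptor of TLR4, and of Relb (3.97 ± 0.31), an NF-κB subunit. The summed leukocyte markers beside these genes were 16.6 to 29.8 FPKM in sham and 252 to 832 FPKM in AAN.

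Of the 9 inflammasome and pyroptosis genes, Gsdme was the only one not called higher on the deposited scale. Casp4 (ENSMUSG00000033538, chr9:5308828-5336783, plus strand) encodes caspase-11, which binds cytosolic lipopolysaccharide and cleaves gasdermin D. It was at 0.118, 0.130, 0.238 and 0.263 FPKM in sham and at 2.42 to 8.52 FPKM (median 6.79) in AAN. B614 was the lowest AAN mouse and still about an order of magnitude above the highest sham mouse. The change was 4.38 ± 0.35 (adjusted p = 9.1e-07). Casp1, which matures interleukin-1β, was at 0.649, 0.548, 0.974 and 1.22 FPKM in sham and at 7.32 to 17 FPKM (median 11.6) in AAN, without overlap (log2 fold change 3.75 ± 0.27, adjusted p = 5.5e-07). Pycard, the adaptor ASC that joins sensors to caspase-1, was the most abundant of these 9 genes in sham at 2.17, 4.22, 4.03 and 2.68 FPKM, and reached 7.62 to 17.8 FPKM (median 15.3) in AAN (2.12 ± 0.26, adjusted p = 3.19e-05).

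**Figure D3:**
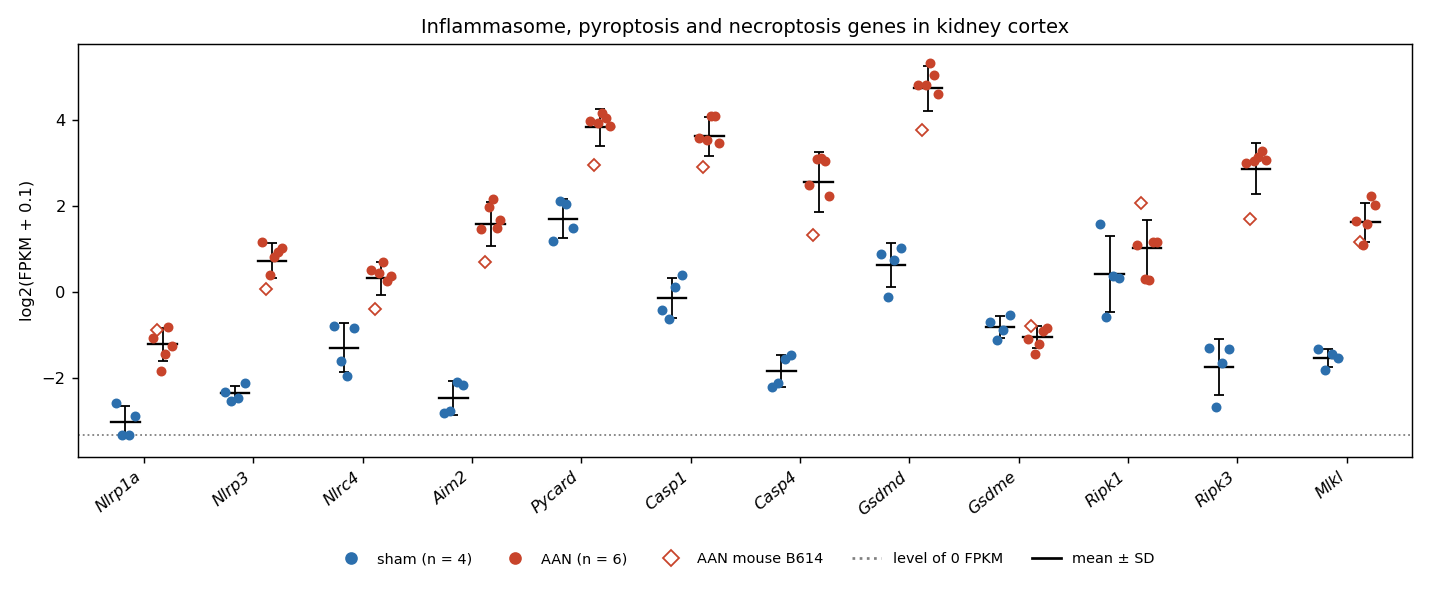
Levels of the 9 inflammasome and pyroptosis genes and 3 necroptosis genes as log2(FPKM + 0.1) in 4 sham mice (blue) and 6 AAN mice (red, B614 as an open diamond), with mean ± SD. Gsdme and Ripk1 overlap between groups, and the other 10 genes are higher in every AAN mouse, with B614 often the lowest of them.

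The sensors were all low in sham. Aim2, which binds cytosolic DNA, was at 0.0419, 0.0463, 0.134 and 0.122 FPKM in sham and at 1.52 to 4.35 FPKM (median 2.89) in AAN. Nlrp3, a sensor of potassium loss and membrane damage, was at 0.0998, 0.0735, 0.0826 and 0.130 FPKM in sham and at 0.952 to 2.13 FPKM (median 1.72) in AAN. Both were higher without overlap, by 4.04 ± 0.29 and 3.09 ± 0.24, and both had a sham mean under the filter. Within a mouse, the log2 difference of Aim2 and Nlrp3 was −0.11 on average in sham and 0.84 in AAN, a shift of 0.95 ± 0.27. Both genes passed the filter through their AAN level, so no p-value or call is given for this shift, 1 of 6 such differences. The highest sham mouse and the lowest AAN mouse crossed slightly, at 0.36 and 0.31. In sham both genes lay near the added constant of 0.1, which draws their difference toward 0. The shift was 0.62 with a constant of 1 and 1.16 with 0.01, and is given as a description. Nlrc4, which responds to bacterial flagellin and secretion systems through NAIP proteins, changed by 1.61 ± 0.29 on the deposited scale (adjusted p = 0.000533) and by 0.99 after median of ratios scaling. Nlrp1a, a sensor of proteolytic activity with close copies in the mouse, was listed at 0 in 2 sham mice, at 0.0682 and 0.0362 FPKM in the other 2, and at 0.180 to 0.467 FPKM (median 0.346) in AAN (1.80 ± 0.28). Its sham mean was under the filter, and its change was not called with a pseudocount of 1 (0.38) or after quantile normalization (0.6, limma adjusted p = 0.113).

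The 2 gasdermins, whose cleaved forms open pores in the plasma membrane, differed in their change. Gsdmd, cut by caspase-1 and caspase-11, was at 1.74, 0.817, 1.57 and 1.91 FPKM in sham and at 13.6 to 39.9 FPKM (median 27.9) in AAN, with every AAN mouse far above sham (log2 fold change 4.10 ± 0.30, adjusted p = 5.85e-07). Gsdme, cut by caspase-3, was at 0.513, 0.363, 0.438 and 0.591 FPKM in sham and at 0.269 to 0.479 FPKM (median 0.403) in AAN. The Gsdme groups overlapped (−0.23 ± 0.21, adjusted p = 0.358). Its change was −0.85 after median of ratios scaling (limma adjusted p = 0.00236) and −1.5 after quantile normalization (limma adjusted p = 0.000127), where it was called lower. Within a mouse, Gsdme minus Gsdmd was −1.44 on average in sham and −5.77 in AAN on the log2 scale, a shift of −4.33 ± 0.32 (exact permutation test, p = 0.00952, the smallest that 4 and 6 mice allow, adjusted p = 0.0143). Gsdmd made up 69.2 to 78.2% of the summed FPKM of both genes in sham and 96.6 to 99.2% in AAN.

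Of 20 other inflammasome genes listed, 17 were tested, 14 were higher and 1, Nlrp6, was lower (median log2 fold change 2.44), beside 35.8% and 3.43% of all genes. By median of ratios 11 were higher and 2 lower (median 1.92), beside 19.1% and 10.5%. The 14 include Naip1, Naip6, Mefv, Il1a and Nlrc3, whose sham mean was under the filter. These genes passed through their AAN level, so their calls are a description. Gbp2, a guanylate-binding protein of the interferon response, changed by 4.77 ± 0.48, Casp12, a neighbour of Casp1 and Casp4 in sequence, by 4.13 ± 0.28, and Il1a, which encodes interleukin-1α, by 4.10 ± 0.41. Il1a had a mean of 0.00723 FPKM in sham, so that its fitted change depends on the added constant. Beside these genes, the 8 macrophage markers summed to 38.3 to 61.3 FPKM in sham and 624 to 2167 FPKM in AAN. T cell markers summed to 0.751 to 2.95 and 67.3 to 172 FPKM, fibroblast markers to 14.2 to 19.2 and 101 to 230 FPKM. Injured tubule markers summed to 43.5 to 59.6 and 200 to 551 FPKM, while endothelium markers overlapped (28.3 to 49.0 and 43.3 to 62.5 FPKM). In which cells the inflammasome genes differed was not tested.

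In necroptosis, RIPK1 and RIPK3 form a complex that phosphorylates the pore former MLKL. Ripk3 (ENSMUSG00000022221, chr14:55784995-55788865, minus strand) was at 0.307, 0.0565, 0.217 and 0.299 FPKM in sham and at 3.13 to 9.53 FPKM (median 8.21) in AAN. Every AAN mouse was above sham, and B614 was well under the other 5. The change was 4.61 ± 0.35 (adjusted p = 6.93e-07). Mlkl was at 0.3, 0.184, 0.266 and 0.248 FPKM in sham and at 2.03 to 4.56 FPKM (median 2.96) in AAN, again without overlap (3.15 ± 0.25, adjusted p = 8.82e-07). Ripk1 was at 2.88, 0.571, 1.2 and 1.15 FPKM in sham and at 1.11 to 4.09 FPKM (median 2.08) in AAN. Its groups overlapped, and B614 was the highest AAN mouse for this gene (0.59 ± 0.42, adjusted p = 0.245, −0.12 after median of ratios scaling). Ripk1 shares exonic bases with Serpinb6a on the opposite strand (241 bases), whose log2 fold change was 2.18, and with Gm17084 on the same strand (511 bases).

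The order of these genes within a mouse differed between the sham and the AAN mice. Ripk3 minus Ripk1 was −2.16 on average in sham and 1.86 in AAN, a shift of 4.02 ± 0.54 (exact permutation test, p = 0.00952, adjusted p = 0.0143). Mlkl minus Ripk1 was −1.95 on average in sham and 0.61 in AAN, a shift of 2.56 ± 0.47 (exact permutation test, p = 0.00952, adjusted p = 0.0143). Both differences were chosen with earlier results known, and they are not independent of the rises of Ripk3 and Mlkl. In sham Ripk1 was above Ripk3 and Mlkl in all 4 mice. In AAN it was below both in 5 of 6 mice, B614 being the exception with −0.37 for Ripk3 and −0.92 for Mlkl. Of 10 other genes of the pathway, 6 were higher and none lower (median log2 fold change 1.16), beside 35.8% and 3.43% of all genes, and by median of ratios 2 were higher and none lower (median 0.41), beside 19.1% and 10.5%. Zbp1, a sensor of Z-form nucleic acids that engages RIPK3, changed by 3.69 ± 0.32, Tnfrsf1a, which encodes the TNF receptor TNFR1, by 1.85 ± 0.26, and Traf2, a ubiquitin ligase at that receptor, by 1.5 ± 0.18.

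**Figure D4:**
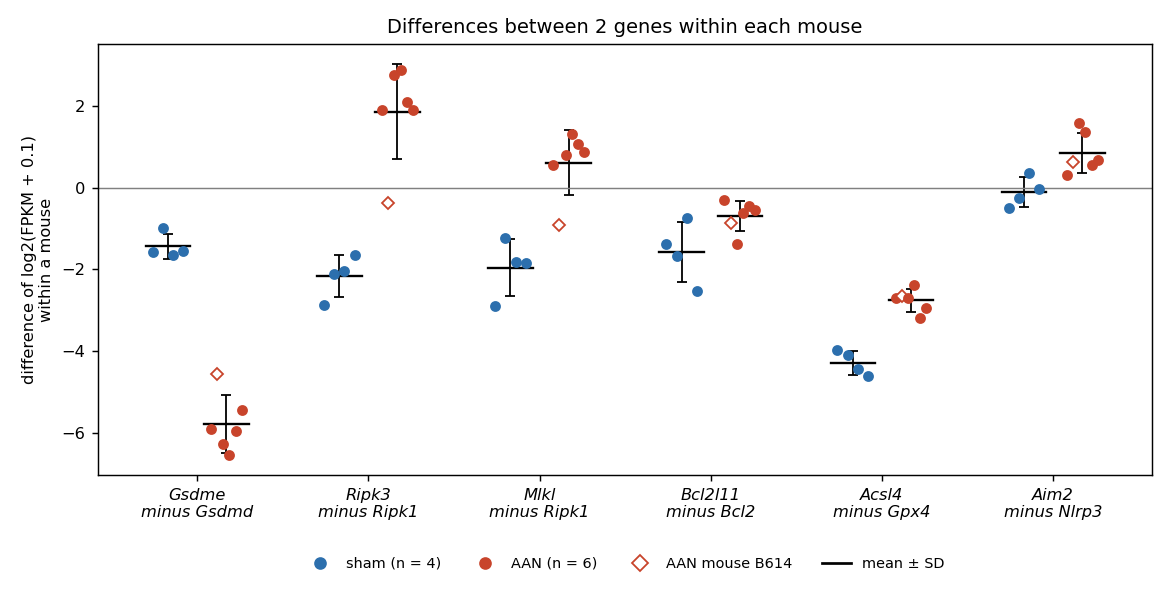
Difference of 2 genes in log2(FPKM + 0.1) within each mouse, for 4 sham mice (blue) and 6 AAN mice (red, B614 as an open diamond), with mean ± SD. Gsdme minus Gsdmd, Ripk3 minus Ripk1, Mlkl minus Ripk1 and Acsl4 minus Gpx4 are separate between the groups, while the other 2 differences overlap.

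In the apoptosis genes, the anti-apoptotic Bcl2a1b had the largest change of the 44. BCL2A1 is an NF-κB target of leukocytes that binds and holds BH3-only proteins. Bcl2a1b (ENSMUSG00000089929, chr9:89199209-89207827, plus strand) was at 1.12, 0.772, 0.892 and 0.891 FPKM in sham and at 20.6 to 83.8 FPKM (median 78.2) in AAN, with B614 at 20.6 FPKM and the other 5 at 63.3 FPKM or more. The log2 fold change was 5.93 ± 0.36 (adjusted p = 1.96e-07). The mouse has several near-identical Bcl2a1 copies, so that fragments can be split among them. The coding sequences of Bcl2a1a, Bcl2a1b and Bcl2a1d (GENCODE release M21, GRCm38) each have 516 bases, of which 12 positions differ among the 3 copies. Bcl2a1b was 97.9% identical to Bcl2a1a and 98.8% to Bcl2a1d. Coding bases 1 to 150 are shown because they hold 7 of the 12 differing positions, printed in capitals, and all else is the same.
Bcl2a1a: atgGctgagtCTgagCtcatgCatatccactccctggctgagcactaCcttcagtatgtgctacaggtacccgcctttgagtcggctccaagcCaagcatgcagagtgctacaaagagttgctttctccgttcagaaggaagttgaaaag
Bcl2a1b: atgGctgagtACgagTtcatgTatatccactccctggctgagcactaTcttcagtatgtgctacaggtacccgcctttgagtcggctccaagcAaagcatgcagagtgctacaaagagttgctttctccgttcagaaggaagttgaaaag
Bcl2a1d: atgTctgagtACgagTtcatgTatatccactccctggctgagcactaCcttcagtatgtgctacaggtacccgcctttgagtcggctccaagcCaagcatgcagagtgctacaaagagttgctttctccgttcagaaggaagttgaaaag

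The value of 1 copy is uncertain for this reason, and the sum of the 3 copies was 1.89 to 2.67 FPKM in sham and 45.9 to 197 FPKM in AAN. Bcl2a1b made up 37.5 to 41.9% of that sum in sham and 42.6 to 48.9% in AAN. Bcl2a1a and Bcl2a1d changed by 5.68 ± 0.38 and 5.52 ± 0.38. Bcl2a1b also shares 401 of its 817 exonic bases with Gm29094 on the same strand, which was at 0.0959 to 1.2 FPKM in AAN.

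The other anti-apoptotic BCL2 genes had smaller fold changes. Mcl1, whose short-lived protein holds BAK1 and BIM, was at 24.3, 16.5, 16.6 and 19.5 FPKM in sham and at 43.9 to 81.3 FPKM (median 67.9) in AAN, with no overlap (1.73 ± 0.21, adjusted p = 2.24e-05, 0.97 after median of ratios scaling). Bcl2 itself was at 1.24, 0.931, 0.836 and 0.877 FPKM in sham and at 2.38 to 2.87 FPKM (median 2.67) in AAN, a narrow range (1.36 ± 0.16, adjusted p = 2.11e-05, 0.65 after median of ratios scaling). Bcl2l1, which encodes BCL-XL, was at 3.31, 3.65, 5.07 and 3.56 FPKM in sham and at 3.46 to 8.02 FPKM (median 5.45) in AAN. The Bcl2l1 groups overlapped (0.54 ± 0.23, adjusted p = 0.0599, −0.20 after median of ratios scaling). Of the summed FPKM of these 4 genes, Mcl1 took 71.0 to 81.1% in sham and 37.5 to 65.7% in AAN, and Bcl2a1b 3.53 to 3.81% and 26.7 to 54.0%.

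Among the pro-apoptotic genes, Bak1 and Bcl2l11 were higher and Bid was not. Bak1, a pore former of the outer mitochondrial membrane, was at 3.13, 2.77, 2.98 and 3.62 FPKM in sham and at 10.7 to 19.8 FPKM (median 14.6) in AAN, with every AAN mouse above sham (2.16 ± 0.19, adjusted p = 1.79e-06). Bak1 overlaps exons of Ggnbp1 on the opposite strand, whose log2 fold change was −0.084. Bcl2l11, which encodes the BH3-only activator BIM, was at 0.419, 0.224, 0.458 and 0.0703 FPKM in sham and at 0.864 to 2.07 FPKM (median 1.85) in AAN (2.24 ± 0.36, adjusted p = 0.000218). The difference of Bcl2l11 and its binding partner Bcl2 within a mouse was −1.58 on average in sham and −0.70 in AAN, a shift of 0.88 ± 0.40 (exact permutation test, p = 0.0381, adjusted p = 0.0381). The groups overlapped in this difference, and it was 0.57 without sham mouse H249, the lowest of the sham mice (adjusted p = 0.0952).

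Bid, which caspase-8 cleaves to link death receptors to the mitochondria, was at 18.2, 10.6, 10.8 and 14.1 FPKM in sham and at 3.16 to 12.6 FPKM (median 7.48) in AAN. B614, at 12.6 FPKM, lay within the sham range and the other 5 AAN mice were below all sham mice. The change was −0.94 ± 0.35 (adjusted p = 0.0335), just short of 2-fold, and it passed both limits after median of ratios scaling (−1.69) and without any one of B634, B636, B614, B642 or B666 (−1.11 without B614). It was −0.72 without A483. Over all alternatives the weakest change was −0.69 and the largest limma adjusted p was 0.109. Bid shares 628 exonic bases with Bcl2l13 on the opposite strand, whose log2 fold change was 0.020. Bid took 75.8 to 83.7% of the summed FPKM of Bid, Bak1 and Bcl2l11 in sham and 15.8 to 49.8% in AAN.

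**Figure D5:**
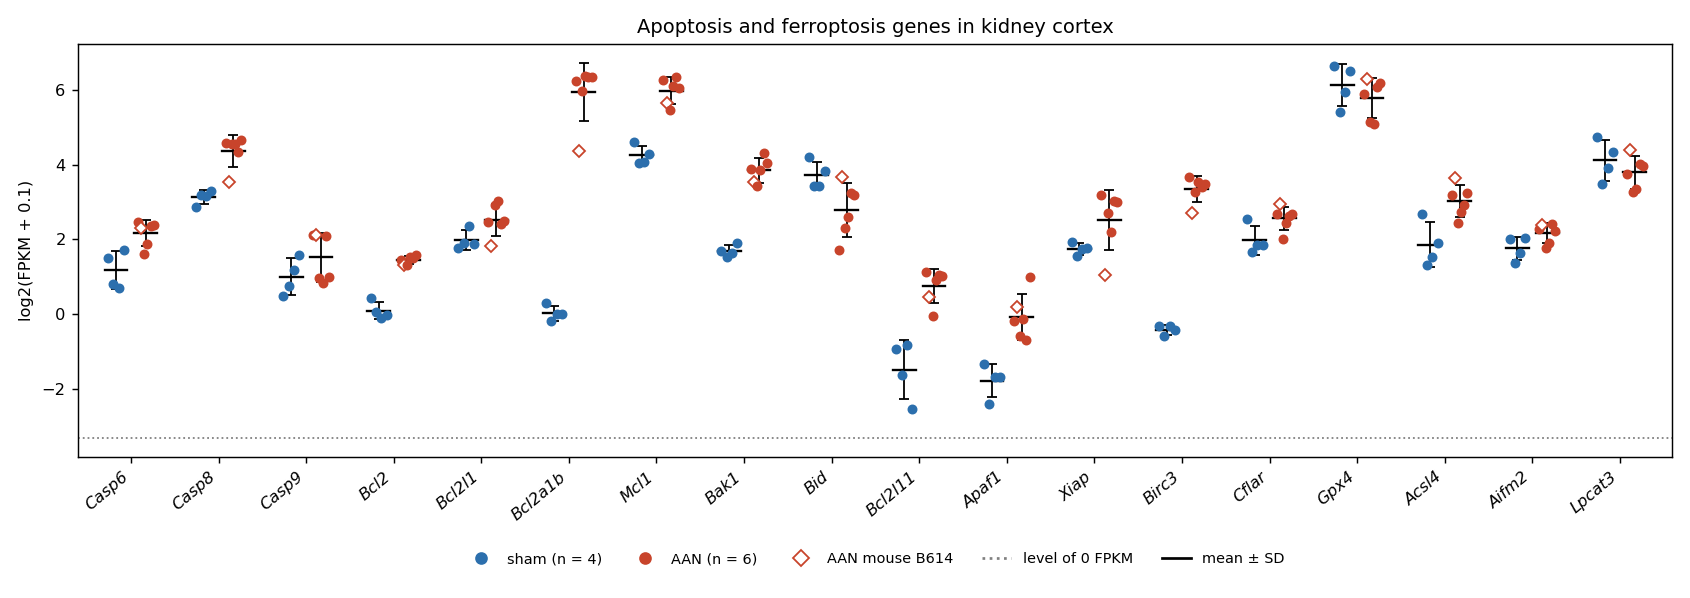
Levels of the 14 apoptosis genes and 4 ferroptosis genes as log2(FPKM + 0.1) in 4 sham mice (blue) and 6 AAN mice (red, B614 as an open diamond), with mean ± SD. Bcl2a1b and Birc3 show the widest separation, Bid is below every sham mouse in all AAN mice but B614, and all 4 ferroptosis genes overlap.

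The caspases of apoptosis had smaller fold changes than Casp1 and Casp4, a difference that was not tested. Casp8, the initiator caspase at death receptors that also restrains necroptosis, was at 7.22, 8.97, 8.89 and 9.81 FPKM in sham. In AAN it was at 11.5 FPKM in B614 and at 20.2 to 25.2 FPKM in the other 5 mice, all above sham (1.24 ± 0.22, adjusted p = 0.00048, 0.48 after median of ratios scaling). Casp6, an executioner caspase, was at 2.71, 1.64, 1.52 and 3.21 FPKM in sham and at 2.96 to 5.47 FPKM (median 4.94) in AAN. This was a change of 0.99 ± 0.25 that passed the adjusted p (0.00515) but not the 2-fold limit. It passed both without B607, H249, B630 or B639, with 1.17 without H249. The Casp6 change was 0.25 after median of ratios scaling (limma adjusted p = 0.319) and 0.094 after quantile normalization (limma adjusted p = 0.716). Casp9, the initiator caspase of the apoptosome, was at 1.29, 1.57, 2.18 and 2.91 FPKM in sham, and at 1.67 to 4.28 FPKM (median 3.03) in AAN, with 3 low and 3 high mice and overlap with sham (0.52 ± 0.34, adjusted p = 0.203, −0.21 after median of ratios scaling). Apaf1, the scaffold on which caspase-9 is activated, was at 0.292, 0.0870, 0.211 and 0.207 FPKM in sham and at 0.512 to 1.89 FPKM (median 0.786) in AAN, with B666 highest (1.71 ± 0.34, adjusted p = 0.00107). Apaf1 was not called after quantile normalization (0.43, limma adjusted p = 0.294) or with a pseudocount of 1 (0.65).

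The inhibitors of caspases were unequal. Birc3, which encodes the ubiquitin ligase cIAP2 at TNF receptors, was at 0.696, 0.559, 0.705 and 0.643 FPKM in sham and at 6.40 to 12.7 FPKM (median 10.8) in AAN. Birc3 was higher in every AAN mouse and had the smallest adjusted p of the 44 genes (3.76 ± 0.19, adjusted p = 1.26e-07). Xiap, which blocks caspases directly, was at 3.73, 2.83, 3.22 and 3.31 FPKM in sham and at 1.96 to 8.99 FPKM (median 7.16) in AAN, with B614 below all sham mice and the other 5 above them. Its change was 0.78 ± 0.36 (adjusted p = 0.0809, −0.038 after quantile normalization), and 1.08 without B614 (adjusted p = 0.000958). Cflar, which encodes the caspase-8 inhibitor c-FLIP, was at 5.74, 3.05, 3.49 and 3.49 FPKM in sham and at 3.94 to 7.60 FPKM (median 6.17) in AAN, with overlap through sham mouse B607 (0.59 ± 0.22, adjusted p = 0.0344, −0.16 after median of ratios scaling). Of 27 other apoptosis genes, 26 were tested, 16 were higher and none lower (median log2 fold change 1.46), beside 35.8% and 3.43% of all genes, and by median of ratios 11 were higher and 3 lower (median 0.72), beside 19.1% and 10.5%. Next to the Bcl2a1 copies, the largest change was that of Fasl, the ligand of the death receptor FAS (3.62 ± 0.33). Fasl had a mean of 0.0259 FPKM in sham, so that its fitted change depends on the added constant. That mean was under the filter, and Fasl passed through its AAN level, so its call is a description.

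The ferroptosis genes had the smallest median change of the 5 classes on the deposited scale. Gpx4, the peroxidase that removes lipid peroxides, was among the most abundant of the 44 genes at 101, 42.5, 62.1 and 91.0 FPKM in sham and 34.0 to 78.8 FPKM (median 63.9) in AAN. Its ranges overlapped widely (−0.35 ± 0.31, adjusted p = 0.345), and the change was −1.11 after median of ratios scaling (adjusted p = 0.00379). Lpcat3, which inserts polyunsaturated fatty acids into phospholipids, was at 26.8, 11, 15 and 20.1 FPKM in sham and at 9.51 to 21 FPKM (median 14.5) in AAN (−0.33 ± 0.28, adjusted p = 0.324), and its change was −1.08 after median of ratios scaling (adjusted p = 0.0018). Aifm2, which encodes the ubiquinone reductase FSP1, was at 3.90, 2.49, 2.99 and 3.99 FPKM in sham and at 3.32 to 5.26 FPKM (median 4.69) in AAN, with overlap (0.41 ± 0.19, adjusted p = 0.0877, −0.34 after median of ratios scaling). Aifm2 shares 233 exonic bases with H2afy2 on the opposite strand, whose log2 fold change was 1.40.

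Acsl4, which activates arachidonic acid for the lipids that are peroxidised, was the exception. Acsl4 (ENSMUSG00000031278, chrX:142317993-142390535, minus strand) was at 6.32, 2.39, 2.78 and 3.63 FPKM in sham and at 5.34 to 12.4 FPKM (median 8.26) in AAN. Sham mouse B607 lay above the lowest AAN mouse, B630, and below the rest, of which B614 was highest. The change of 1.17 ± 0.29 (adjusted p = 0.00432) fell to 0.99 without sham mouse B634 and to 0.43 after median of ratios scaling. Within a mouse, Acsl4 minus Gpx4 was −4.28 on average in sham and −2.75 in AAN, a shift of 1.52 ± 0.19 without overlap (exact permutation test, p = 0.00952, adjusted p = 0.0143). Of 25 other ferroptosis genes, 7 were higher and 2, Tfrc and Por, lower (median log2 fold change 0.54), beside 35.8% and 3.43% of all genes. By median of ratios 5 were higher and 7 lower (median −0.16), beside 19.1% and 10.5%, so that the balance of the list turned with the scaling. Gch1, which encodes the first enzyme of tetrahydrobiopterin synthesis, changed by 2.31 ± 0.24, Alox5, a leukocyte lipoxygenase, by 2.16 ± 0.28 and Alox15, another lipoxygenase, by 1.77 ± 0.49. Alox5 and Alox15 had means of 0.0122 and 0.0174 FPKM in sham, so that their fitted changes depend on the added constant. Both means were under the filter, and the 2 genes passed through their AAN level, so their calls are a description. Tfrc, the transferrin receptor, changed by −1.48 ± 0.33. Beside these genes, the proximal tubule markers summed to 1751 to 3935 FPKM in sham and 540 to 904 FPKM in the AAN mice other than B614, and their part in the ferroptosis values was not tested.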

How the data were processed

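Total RNA of the kidney cortex was sequenced by the authors as paired-end TruSeq libraries on the HiSeq Xten. Reads were cleaned, mapped to GRCm38.p4 with Hisat2 2.0.4 and summarised with Stringtie 1.3.0, and the deposited values are the authors' FPKM per gene and mouse, with no mice pooled. The annotation release and the use of strand are not given in the sources used here. Ensembl identifiers were matched to symbols of GENCODE release M21 (21650 of 21792). The authors used edgeR, which needs counts, so limma 3.58.1 (R 4.3.3, trend and robust) was used here on log2(FPKM + 0.1) for the 17129 genes whose mean over the mice reached 0.1 FPKM, with Benjamini-Hochberg adjustment over all of them. The call limits were an adjusted p of 0.05 and a fold change of 2 or 0.5. Differences within a mouse were tested with exact permutation tests over the 210 divisions of 10 mice (scipy 1.17.1), adjusted over 6. The script for the test was checked on simulated data. Depth was estimated from genes with 1 transcript, whose values under 0.3 FPKM were whole multiples of 1 fragment, within 0.05, in 94.6 to 96.9% of cases. Limits from it cover counting error only. The 44 genes, the lists of other pathway genes and markers, and the tests were chosen with earlier results of these data known. Every one of the 44 was named, and of each list of other genes up to 3 with the largest called change, beside genes whose call was lower or which a result turned on. Alternatives were other pseudocounts (1 and 0.01), filters, scalings, fits and sets of mice. Per the study's methods, controls were littermates and cages held several mice, but the labels do not give which mice shared a litter or cage, so p-values measure only the spread between these mice. The promoters came from RefSeq, and coordinates are 1-based on GRCm38.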

Additional observations from a re-analysis of the deposited data

Results flagged for a closer look

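Each group of 4 or 6 mice was examined for 1 mouse far from the others in each of the 44 genes (Dixon's test at the 95% level). Of 88 groups, 7 held such a mouse, where chance gives about 4.4, and in 6 of the 7 it was AAN mouse B614. Tlr1 was at 3.36 FPKM in B614 and at 9.63 to 11.7 FPKM in the other AAN mice. Pycard was at 7.62 FPKM against 14.4 to 17.8 FPKM, Ripk3 at 3.13 against 7.82 to 9.53 FPKM, Casp8 at 11.5 against 20.2 to 25.2 FPKM, and Bcl2a1b at 20.6 against 63.3 to 83.8 FPKM. Ripk1 was the reverse, at 4.09 FPKM in B614 against 1.11 to 2.15 FPKM. In the sham group, Cflar was at 5.74 FPKM in B607 against 3.05 to 3.49 FPKM. B614 was the lowest AAN mouse in 20 of the 44 genes and the highest in 8, and in 18 it lay between the sham mice and the other AAN mice. Its summed leukocyte markers were the lowest and its summed proximal tubule markers the highest of the AAN mice. Its thick limb markers (1930 FPKM) and its distal tubule and collecting duct markers (800 FPKM) were above those of every sham and AAN mouse. The highest sham mice had 1637 and 612 FPKM of them. The part of any of these markers in the values of B614 was not tested.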

How the results depend on the processing

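The count of genes higher in AAN, 31 of 44, was 21 to 33 under all alternatives and 30 to 32 with each mouse left out. The count of genes lower, 0, was 3 by median of ratios (Bid, Gpx4, Lpcat3), 2 by quantile normalization (Bid, Gsdme), 1 (Bid) with no fold change limit and 1 with B614 and B634 both left out, an alternative chosen after seeing the data, and 0 to 1 with each mouse left out. Of the 31 higher genes, 18 kept their call under each of 20 alternatives in which they had a value. The call was lost by median of ratios for Myd88, Nlrc4, Casp8, Bcl2, Mcl1 and Acsl4, and by quantile normalization or a pseudocount of 1 for Tlr4, Tlr5, Tlr7, Tlr8, Nlrp1a, Bcl2l11 and Apaf1 as well. By median of ratios the direction turned for Tlr12 (-0.17), Ticam1 (-0.60), Ripk1 (-0.12), Casp9 (-0.21), Bcl2l1 (-0.20), Cflar (-0.16) and Aifm2 (-0.34). By quantile normalization it turned for Tlr12 (-0.18), Ticam1 (-0.49), Ripk1 (-0.49), Casp9 (-0.46), Bcl2l1 (-0.25), Xiap (-0.038), Cflar (-0.21) and Aifm2 (-0.43), and without B614 and B634 for Ticam1 (-0.015). Both scalings lower the median of all genes, to 0.066 and -0.13. The difference of Bcl2l11 and Bcl2 within a mouse was 0.14 with a pseudocount of 1 (adjusted p = 0.324, exact permutation test), 0.49 among mice with B tags alone (adjusted p = 0.143, exact permutation test) and 0.57 to 1.16 with each mouse left out, where it lost its call without B607, B634, H249, A483, B639, B642 or B666. That of Aim2 and Nlrp3, which is a description without a call, was 0.81 to 1.11 with each mouse left out. The cause was not tested. The other 4 differences within a mouse kept their call throughout. No paired analysis was possible because sham and AAN tags have no number in common. At this depth, genes near 0 FPKM in sham (Tlr5, Tlr8, Nlrp1a) allow no precise fold change, and genes under a mean of 1 FPKM have no value under that filter.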
